A study of Homo sapiens with 6 samples.

Results

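The mitochondrial carriers of the SLC25 family were examined in C4-2B prostate cancer cells that had acquired resistance to enzalutamide. The members were the genes whose symbol is SLC25A followed by a number, which gave 48 of the 58024 genes in the table of expression values, spread over 19 chromosomes. A further row for SLC25A6, the copy on the Y chromosome of a region shared by X and Y, was listed at 0 in all 6 libraries and was not counted. C4-2B is a bone metastatic subline derived from LNCaP cells through the C4-2 line, and enzalutamide is an antiandrogen. By RNA-Seq, 3 libraries came from the parental line (C4-2B parental) and 3 from the resistant line (C4-2B enzalutamide resistant). Resistance was raised by passage in enzalutamide stepped up from 1 to 20 µM over 6 months or more, with maintenance in 5 µM afterwards, whereas the parental cells were passaged alongside in dimethyl sulfoxide, the vehicle. The extraction protocol states 10 µM enzalutamide and names both kinds of cells in one phrase, so whether the parental cells were also exposed shortly before extraction is not clear from it. Both groups were grown in RPMI medium with 10% fetal bovine serum. No source used here says that resistant clones were isolated or that the 3 libraries of a group came from separate cultures, so p values measure the spread between these libraries, which may be technical, and the resistant group stands for a single selected population.

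SLC25 proteins sit mostly in the inner mitochondrial membrane, where each one exchanges or carries small molecules between the cytosol and the matrix. They bring ADP and phosphate to the ATP synthase and take ATP out, pass citrate, malate, glutamate and aspartate between metabolic pathways of both compartments, and deliver nucleotides, iron and cofactors that the matrix cannot make for itself. In the prostate the luminal epithelium is known for exporting citrate. The malate-aspartate shuttle supplies the respiratory chain with reducing equivalents, and the carnitine shuttle brings fatty acyl groups to beta-oxidation.

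Expression is given as FPKM, fragments mapped per kilobase of transcript and scaled to the depth of the library, so levels are per length and can be set side by side between genes. The values give no read counts. The depth, estimated from what 1 read is worth on genes with a single transcript, lay between 13500000 and 20300000 reads a library, and at these depths 1 read on a transcript of 2000 bases is worth between 0.0274 and 0.0411 FPKM. This estimate is rough, as a share of only 0.381 to 0.564 of the values used lay within 0.1 of a whole read. The luminal prostate markers were present in both groups, with HOXB13, a transcription factor of the prostate, at 103 FPKM in parental and 102 FPKM in resistant cells and KLK3, the gene of prostate-specific antigen, at 2556 and 44 FPKM. The markers of leukocytes, endothelium and basal epithelium were each at most 1.14 FPKM in every library, with VWF of the endothelium at 0.804 FPKM in parental and 0.231 FPKM in resistant cells and KRT14 of basal epithelium at 0.669 FPKM and listed at 0, both downregulated, and the 6 fibroblast markers summed to between 8.04 and 14.95 FPKM, with 2 of the 5 tested higher in resistant cells (DCN, listed at 0 in parental cells and at 3.92 FPKM in resistant cells, and LUM, at 0.0604 and 0.969 FPKM) and 1 lower (PDGFRB, at 2.10 and 0.164 FPKM). Genes were tested if their mean over all libraries reached 0.1 FPKM. DCN and LUM reached it only through the resistant libraries and KRT14 only through the parental ones. Short non-coding RNA genes held 24.7% to 28.2% of all FPKM, and within them RMRP held at least 18.4% of each parental and at most 12.6% of each resistant library, while RPPH1 was listed at 0 in parental cells and held at least 10.7% in each resistant library. When these genes were left out and each library rescaled, 9 members were upregulated and 12 were downregulated. In such bulk RNA a smaller number of cells with a transcript and less of it in each cell cannot be told apart.

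Of the 48 carriers, 44 had a mean of at least 0.1 FPKM and were tested, and 20 of these differed between resistant and parental cells at a Benjamini-Hochberg adjusted p below 0.05 in limma. The 20 members, 8 of them upregulated and 12 downregulated, were 45.5% of those tested, against 44.4% of all 24468 genes tested, of which 22.1% were upregulated and 22.3% downregulated, and 55.7% of the protein-coding genes tested. Where the mean reached 1 FPKM, the share called was 46.3% of the members and 53.2% of all genes. All 20 called members had no overlap between the values of both groups, and 26 members in all, or 59.1%, had none, against 54.8% of all genes tested. The share of members that changed was therefore close to that over all genes and below that over protein-coding genes.

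The changes of the carriers were small. The median size of the log2 fold change was 0.42 over the 44 members, 0.85 over all genes tested and 0.68 over those whose mean reached 1 FPKM. The members held as many positive as negative log2 fold changes, 22 of each, with a median of -0.01 beside -0.05 over all genes. Only 6 members, or 13.6%, both passed the test and differed by at least 2-fold, against 28.5% of all genes. These were SLC25A34, which was higher in resistant cells, and SLC25A48, SLC25A10, SLC25A33, SLC25A25 and SLC25A12, which were lower. The other solute carrier genes in the table, 403 of them with 249 tested, changed more, with 76 upregulated and 91 downregulated, or 67.1%, a median size of 1.05 and 44.6% past the test at 2-fold or more.

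**Figure D1:**
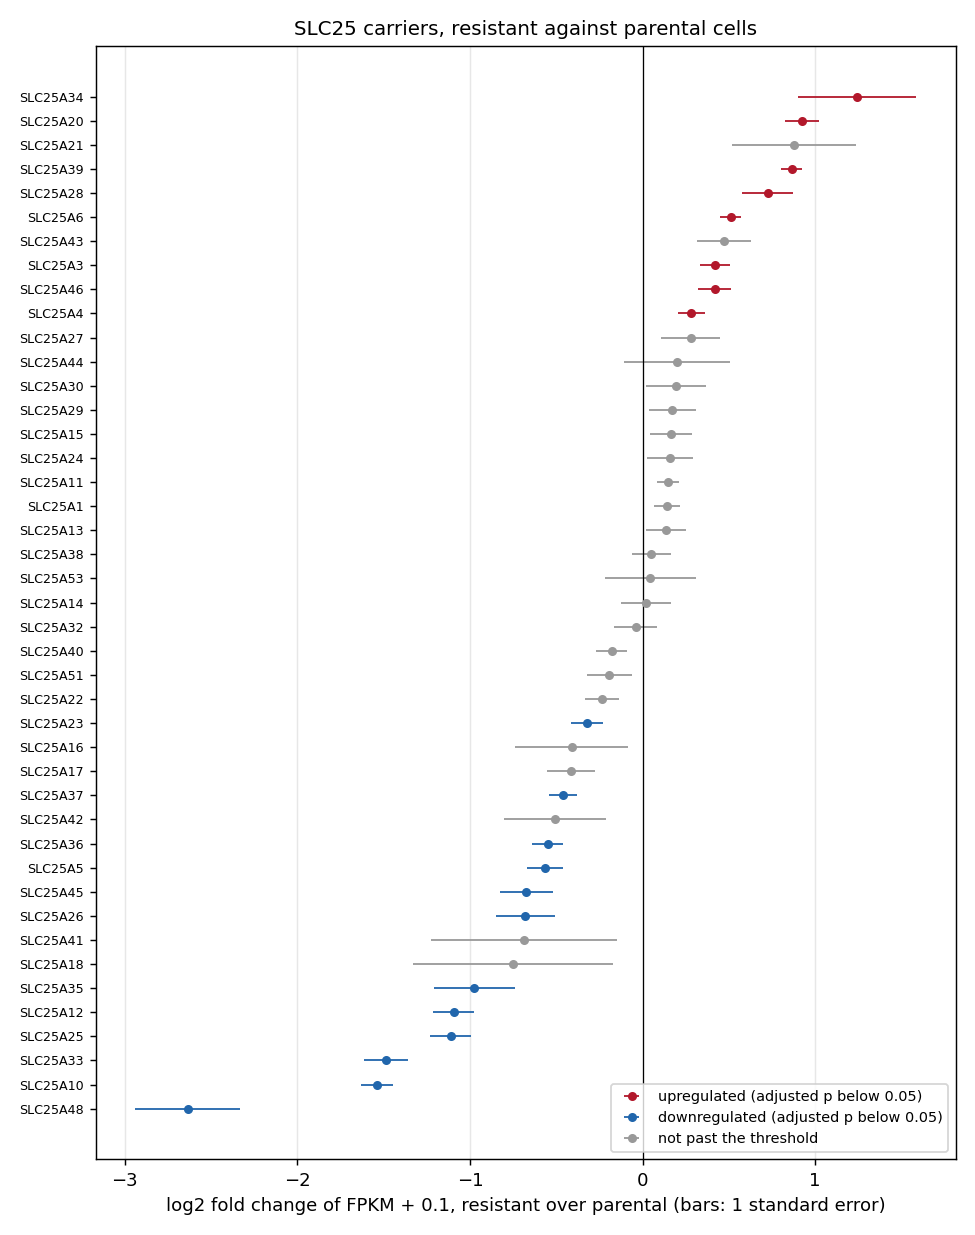
The log2 fold change of FPKM + 0.1 in resistant over parental cells is drawn on the horizontal axis for the 44 tested carriers except 1 that is left out, with bars of 1 standard error, and colour marks the members past an adjusted p of 0.05. Most members lie within 1 log2 unit of 0, and the 5 downregulated members beyond it, from SLC25A48 at -2.63 to SLC25A12 at -1.09, stand against SLC25A34 at 1.24 on the other side.

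The summed level of the family differed by less than the spread between libraries. The 48 members had a summed FPKM of 2361, 2154 and 2269 in parental cells against 2194, 2330 and 2252 in resistant cells, a ratio of 0.999 (exact permutation p = 1.0). Without SLC25A3, the highest member by its mean over all libraries, the sum was 1860 ± 73.7 FPKM (SD, n = 3) in parental and 1724 ± 32.2 FPKM in resistant cells, a ratio of 0.926 with no overlap (exact permutation p = 0.1, the smallest that 3 against 3 libraries allow). The carriers held 0.375% ± 0.0101 of all protein-coding FPKM in parental cells and 0.386% ± 0.00491 in resistant cells. The 5 members with the highest mean over all libraries, SLC25A3, SLC25A5, SLC25A6, SLC25A39 and SLC25A11, took 60.05% ± 1.66 of the family's sum in parental and 67.0% ± 0.498 in resistant cells, without overlap (exact permutation p = 0.1). In parental cells SLC25A10 ranked 4 and SLC25A11 ranked 6, and with the 5 highest members of each library, a ranking chosen after the data were seen, the shares were 61.5% ± 1.64 and 67.0% ± 0.498, again without overlap (exact permutation p = 0.1).

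**Figure D2:**
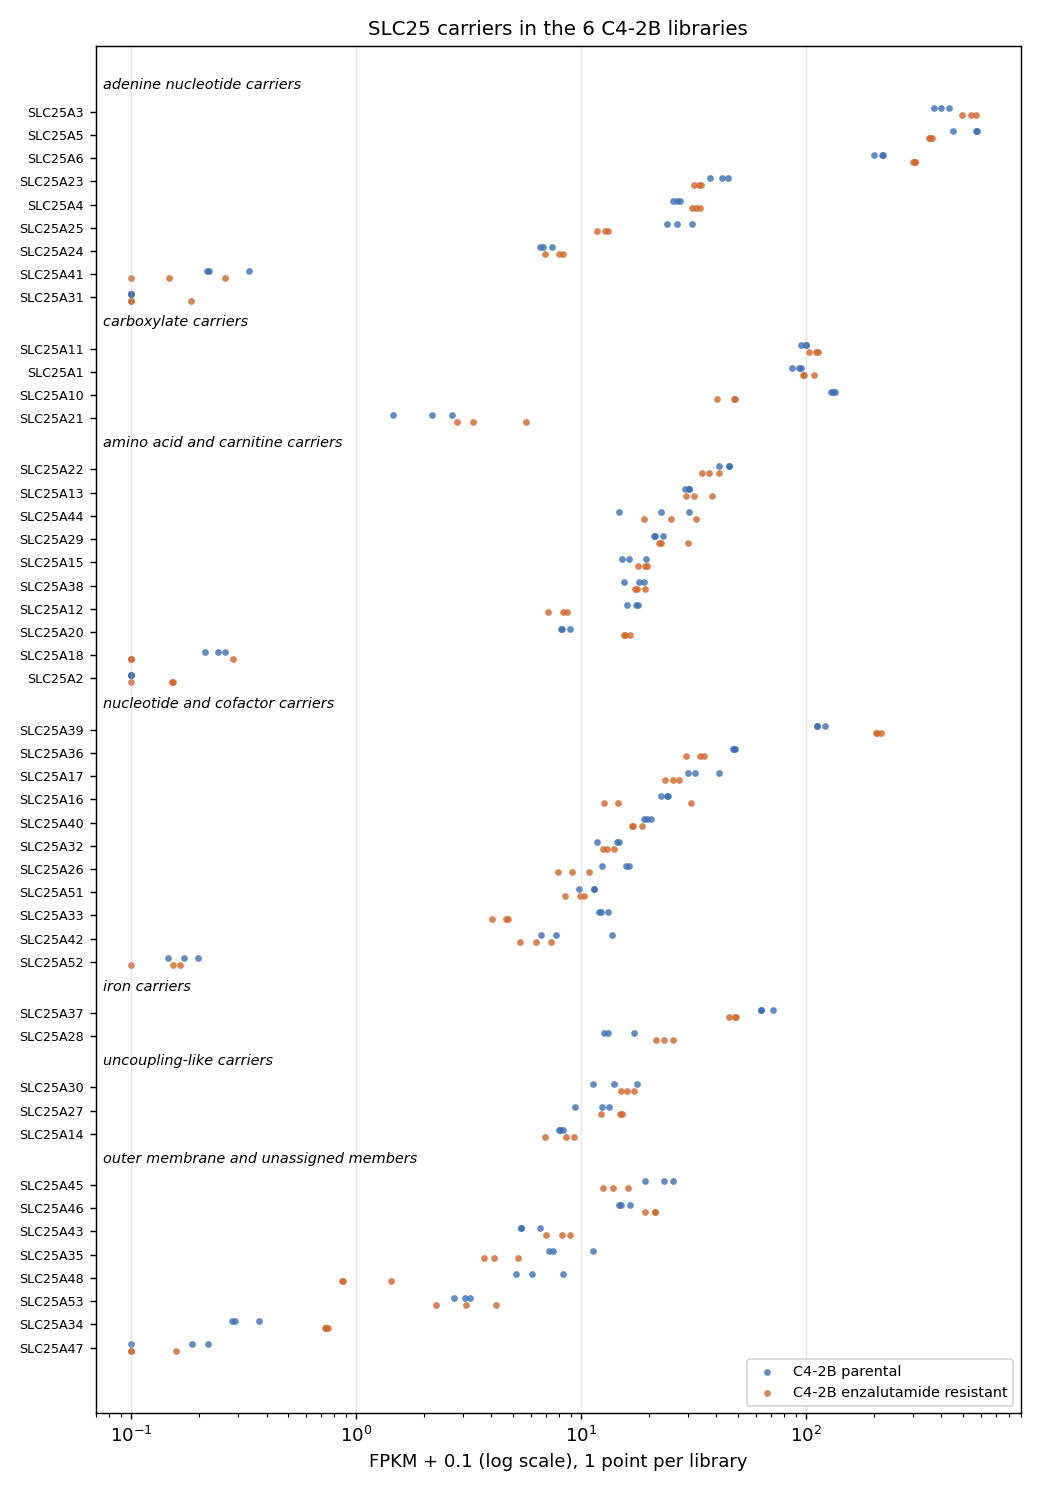
Each point is the FPKM + 0.1 of a carrier in 1 library on a log axis, with 3 parental and 3 resistant libraries per carrier and the carriers, except 1 that is left out, grouped by what they carry. Levels span from under 0.1 FPKM for SLC25A2 and SLC25A31 to 576 FPKM for SLC25A5 in a parental library, and the groups lie apart without overlap for SLC25A10, SLC25A48, SLC25A33, SLC25A20 and SLC25A39, among others.

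The carriers that serve ATP synthesis were the most abundant and moved in both directions. Of the 9 adenine nucleotide and phosphate carriers, 8 were tested, of which SLC25A3, SLC25A6 and SLC25A4 were upregulated and SLC25A5, SLC25A25 and SLC25A23 were downregulated. SLC25A5, the ADP/ATP carrier of dividing cells (ENSG00000005022.5, chrX:119468422-119471396), stood at 571, 449 and 576 FPKM in parental and at 357, 362 and 353 FPKM in resistant cells. Its log2 fold change was -0.56 ± 0.11 (SE; limma adjusted p = 0.00591). SLC25A6, another ubiquitous ADP/ATP carrier in the region shared by X and Y (ENSG00000169100.13, chrX:1386152-1392113), stood at 218, 220.0 and 201 FPKM in parental and at 307, 305 and 299 FPKM in resistant cells. Every resistant library was above every parental one, and the log2 fold change was 0.51 ± 0.06 (limma adjusted p = 0.000925). SLC25A4, the ADP/ATP carrier of heart and skeletal muscle (ENSG00000151729.10, chr4:185143266-185150382), was far lower, at 25.6, 26.7 and 27.6 FPKM in parental and 31.1, 33.9 and 32.3 FPKM in resistant cells. Its log2 fold change was 0.28 ± 0.08 (limma adjusted p = 0.0262), and the call was lost without parental replicate 0 (adjusted p = 0.0538) or without resistant replicate 1 (adjusted p = 0.051). SLC25A31, the testis form, was above 0 in 1 resistant library only, at 0.0852 FPKM, and was not tested.

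The ADP/ATP carriers therefore exchanged shares. SLC25A5 made up 70.0%, 64.5% and 71.6% of the summed FPKM of these carriers in parental cells, against 51.4%, 51.7% and 51.6% in resistant cells. SLC25A6 made up 26.8%, 31.6% and 24.96% in the parental and 44.1%, 43.5% and 43.7% in the resistant libraries. The resistant libraries were nearly identical in both shares, and neither share overlapped between the groups (exact permutation p = 0.1 for each). SLC25A4 took 3.47% ± 0.348 in parental and 4.68% ± 0.184 in resistant cells. The sum of the ADP/ATP carriers was 771 ± 65.9 FPKM in parental and 693 ± 8.46 FPKM in resistant cells, and the groups overlapped (exact permutation p = 0.2).

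SLC25A3, which brings phosphate into the matrix for the ATP synthase (ENSG00000075415.12, chr12:98593591-98606379), was the highest member of the family in resistant cells. It stood at 433, 372 and 397 FPKM in the parental and at 493, 570 and 543 FPKM in the resistant libraries, which did not overlap, with a log2 fold change of 0.42 ± 0.09 (limma adjusted p = 0.00868). The calcium-regulated ATP-Mg/phosphate carriers, which adjust the adenine nucleotide pool of the matrix, went the other way, from 75.7 ± 7.26 FPKM in sum to 53.3 ± 1.61 FPKM (exact permutation p = 0.1). SLC25A25 (ENSG00000148339.12, chr9:128068201-128109245) accounted for most of that, at 30.9, 26.7 and 24.1 FPKM in parental and 13.1, 12.7 and 11.7 FPKM in resistant cells. It was 2.16-fold lower on the scale of FPKM + 0.1, with a log2 fold change of -1.11 ± 0.12 (limma adjusted p = 0.000596). SLC25A23 (ENSG00000125648.14, chr19:6436079-6465203) stood at 45, 42.4 and 37.2 FPKM in parental and at 34.1, 33.4 and 31.8 FPKM in resistant cells. Its log2 fold change of -0.32 ± 0.09 (limma adjusted p = 0.0325) was the least stable call among the members: without parental replicate 0 or 1 or resistant replicate 0, 1 or 2 the adjusted p lay between 0.0602 and 0.0889, and under 4 other scalings of the libraries between 0.0756 and 0.249. SLC25A24 did not pass the test, at 6.83 ± 0.416 and 7.65 ± 0.754 FPKM, and SLC25A41 was below 0.25 FPKM in every library. Within this group SLC25A25 took 35.9% ± 1.39 of the sum in parental and 23.4% ± 0.718 in resistant cells, and SLC25A23 took 54.8% ± 0.431 and 62.1% ± 0.773 (exact permutation p = 0.1 for each).

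Downstream of these carriers, 3 of the 15 nuclear subunits of the ATP synthase were upregulated and 5 were downregulated, with a median log2 fold change of -0.09 over the list. ATP5J2 rose from 733 to 1863 FPKM and ATP5G2, 1 of the genes of the membrane ring subunit c, from 269 to 522 FPKM. The other ATP5G genes, named after their values were seen, did not rise with it. ATP5G3 fell from 260 to 151 FPKM, and ATP5G1, at 315 and 332 FPKM, did not pass the test. ATP5D, which encodes the delta subunit of the catalytic part, fell from 587 to 306 FPKM. Of the 13 protein genes of the mitochondrial genome none was upregulated and 8 were downregulated, with a median of -0.66, the lowest of the lists of mitochondrial and peroxisomal genes. MT-CO3 and MT-CO2, subunits of cytochrome oxidase, stood at 1806 and 598 FPKM in parental and at 945 and 366 FPKM in resistant cells. MT-ATP6, a subunit of the ATP synthase, stood at 226 and 139 FPKM.

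Among the carboxylate carriers, which link the citric acid cycle to the cytosol, the dicarboxylate carrier was the only 1 of 4 members to pass the test. SLC25A10, which exchanges malate and succinate for phosphate (ENSG00000183048.11, chr17:81712236-81721016), was read at 135, 132 and 129 FPKM in parental cells, against 40.1, 48.5 and 48 FPKM in resistant cells. The fall of 2.9-fold was far larger than the spread within either group, and the log2 fold change of -1.54 ± 0.09 gave the smallest p of all 44 members (limma adjusted p = 6.09e-05). SLC25A10 also has 1221 of its 2621 exonic bases in common with a further gene model on the same strand, ENSG00000262660, which was listed at 0 in parental cells and at 0.332 FPKM in resistant cells.

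The other carboxylate carriers gave small or uncertain differences. SLC25A1, the citrate carrier whose export of citrate feeds fatty acid and sterol synthesis, stood at 93.0, 95.2 and 86.5 FPKM in parental and at 97.8, 108 and 97.4 FPKM in resistant cells (log2 fold change 0.14 ± 0.08, limma adjusted p = 0.17). SLC25A11, the oxoglutarate/malate carrier of the malate-aspartate shuttle, stood at 99.8, 99.5 and 95.2 FPKM and at 110.3, 113 and 103 FPKM (0.15 ± 0.06, adjusted p = 0.11). Both members had all resistant libraries above all parental ones without passing the test, and upper quartile scaling, which raised the median of all genes by 0.12 on the log2 scale, brought both past it (adjusted p = 0.0408 for SLC25A1 and 0.0401 for SLC25A11). Of the 16 alternatives that refit the data, 2 called SLC25A1 and 3 called SLC25A11. The lowest limma adjusted p among these was 0.0194 for SLC25A1 and 0.0108 for SLC25A11. SLC25A21, the oxodicarboxylate carrier of lysine breakdown, was low, at 2.58, 1.36 and 2.08 FPKM and at 2.71, 5.60 and 3.20 FPKM. Its log2 fold change of 0.88 ± 0.36 was the largest among members of at least 1 FPKM that did not pass (adjusted p = 0.0942), and 1442 of its 4757 exonic bases overlap PAX9 on the opposite strand, which stood at 8.85 and 4.03 FPKM. In sum the carboxylate carriers went from 324 ± 9.95 to 260 ± 13.9 FPKM (exact permutation p = 0.1).

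The enzymes on both sides of these carriers changed in both directions, 4 up and 5 down of 14. ME1, the cytosolic malic enzyme, stood at 25.3 ± 1.77 FPKM in parental and at 3.66 ± 0.244 FPKM in resistant cells, IDH2, the isocitrate dehydrogenase of the matrix, at 144 ± 4.17 and 60.9 ± 3.54 FPKM, and GOT2, the matrix aspartate aminotransferase, at 144 ± 4.78 and 72.4 ± 3.67 FPKM, each downregulated. GOT1 and ACLY were the others that fell, and CS, MDH1, ME2 and ME3 rose. These 6 genes are named after their values were seen, as are all further list genes below that are given by direction alone. ME3, at 0.0206 FPKM in parental and 5.73 FPKM in resistant cells, entered the test only through the resistant libraries.

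Of the 10 amino acid and carnitine carriers 9 were tested, and 1 rose and 1 fell. SLC25A12, an aspartate/glutamate carrier of the malate-aspartate shuttle regulated by calcium (ENSG00000115840.13, chr2:171783405-171999859), stood at 15.9, 17.9 and 17.5 FPKM in parental and at 8.55, 7.06 and 8.26 FPKM in resistant cells. It was 2.13-fold lower, with a log2 fold change of -1.09 ± 0.12 (limma adjusted p = 0.000633). SLC25A13, the aspartate/glutamate carrier of the liver, did not pass the test, at 30.3, 30.2 and 28.9 FPKM and at 29.1, 38.2 and 31.6 FPKM (log2 fold change 0.14 ± 0.12, adjusted p = 0.373). The pair therefore stood at 36.4% ± 1.80 SLC25A12 in parental and 19.7% ± 3.66 in resistant cells, without overlap (exact permutation p = 0.1). Both forms carry the same exchange, and their sum was 46.8 ± 1.06 FPKM in parental and 40.9 ± 3.88 FPKM in resistant cells (exact permutation p = 0.1).

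SLC25A20, which exchanges acylcarnitines for carnitine and so admits long-chain fatty acids to beta-oxidation (ENSG00000178537.9, chr3:48856926-48898904), was upregulated. It stood at 8.83, 8.04 and 8.09 FPKM in the parental and at 15.5, 16.4 and 15.7 FPKM in the resistant libraries, 1.90-fold higher, with a log2 fold change of 0.92 ± 0.10 (limma adjusted p = 0.000588). The carnitine enzymes around it had 4 of 7 members upregulated and none downregulated, with a median log2 fold change of 0.75 beside -0.05 over all genes. CRAT, carnitine acetyltransferase, stood at 5.31 ± 1.14 and 30.5 ± 3.55 FPKM, CROT, the peroxisomal octanoyltransferase, at 21.0 ± 1.68 and 43.8 ± 4.42 FPKM, and CPT1B, a carnitine palmitoyltransferase of the outer membrane, at 18.1 ± 1.73 and 30.5 ± 2.88 FPKM. CPT1C rose as well, and CPT1A, CPT2 and the plasma membrane carnitine transporter SLC22A5 did not pass the test. The window of 250 bases before the start of SLC25A20 is shown with those of the pyrimidine carriers.

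The remaining amino acid carriers did not pass. SLC25A22, the main glutamate carrier here, stood at 45.6, 45.5 and 41 FPKM in parental and at 37.0, 34.3 and 41.2 FPKM in resistant cells (log2 fold change -0.23 ± 0.10, limma adjusted p = 0.0955; 0.0488 without resistant replicate 2). SLC25A18, the other glutamate carrier, stayed below 0.2 FPKM (adjusted p = 0.341; 0.0195 without resistant replicate 2) and made up 0.314% ± 0.0402 of the pair in parental cells. SLC25A15, the ornithine carrier of the urea cycle, stood at 19.4, 15.1 and 16.3 FPKM and at 17.9, 19.6 and 19.2 FPKM (0.16 ± 0.12, adjusted p = 0.32), while its relative SLC25A2 was above 0 in 2 resistant libraries only, at no more than 0.0542 FPKM. SLC25A29, the carrier of basic amino acids, SLC25A38, which supplies glycine for haem synthesis, and SLC25A44, a carrier of branched-chain amino acids, had log2 fold changes of 0.17, 0.05 and 0.20 with adjusted p from 0.358 to 0.739. SLC25A44 ranged from 14.6 to 30.3 FPKM in the parental and from 18.9 to 32.3 FPKM in the resistant libraries. The enzymes of ornithine, proline and glutamate had 3 up and 4 down of 12 tested. PYCR1 and PYCR3, which make proline, fell from 212 to 123 FPKM and from 59.5 to 29.8 FPKM, and GLUD1, glutamate dehydrogenase, rose from 45.0 to 66.7 FPKM.

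**Figure D3:**
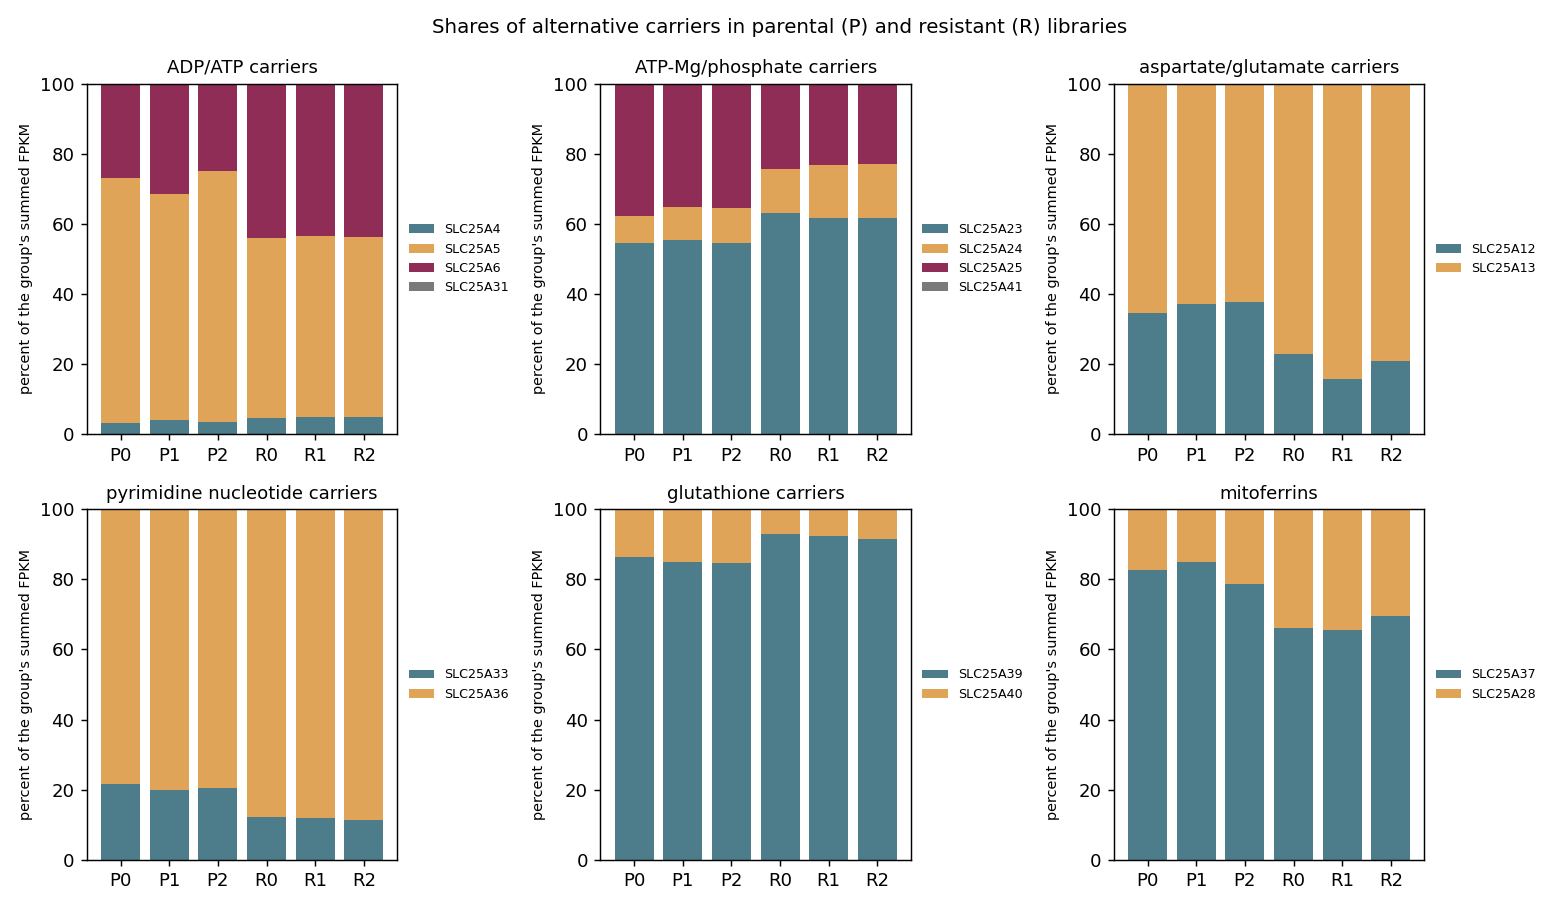
Each bar is 1 library, P0 to P2 parental and R0 to R2 resistant, and its colours divide the summed FPKM of a set of alternative carriers into the percent of each member. The orange part of the ADP/ATP carriers, SLC25A5, shrinks from 68.7% to 51.5% on average, and SLC25A25, SLC25A12, SLC25A33, SLC25A40 and SLC25A37 also lose share in all 3 resistant libraries.

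The nucleotide and cofactor carriers were the largest set, with 12 members and 11 tested, of which SLC25A39 rose and SLC25A33, SLC25A36 and SLC25A26 fell. Both pyrimidine nucleotide carriers, which supply the matrix with the UTP and CTP used for mitochondrial DNA and RNA, were downregulated. SLC25A33 (ENSG00000171612.6, chr1:9539465-9585173) stood at 13.1, 11.9 and 12.1 FPKM in the parental and at 4.63, 3.92 and 4.56 FPKM in the resistant libraries. It was 2.8-fold lower, with a log2 fold change of -1.49 ± 0.13 (limma adjusted p = 0.00024). SLC25A36 (ENSG00000114120.11, chr3:140941830-140980995) stood at 47.6, 48.3 and 47.6 FPKM and at 33.7, 29.3 and 35.3 FPKM, with a log2 fold change of -0.55 ± 0.09 (limma adjusted p = 0.00344). The sum of both went from 60.2 ± 0.507 to 37.1 ± 3.47 FPKM, and the share of SLC25A33 in it from 20.6% ± 0.95 to 11.8% ± 0.323 (exact permutation p = 0.1 for each). Both members of this pair thus fell in all resistant libraries.

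The sequences before the starts of these genes were searched for short motifs, in windows of 250 bases upstream of the RefSeq start (GRCh38.p14), on both strands. The motifs were chosen after the members' values were known. RefSeq windows were given for 40 of the 48 members and for 27305 genes in all. The cyclic AMP response element TGACGTCA was found in 3 members, SLC25A33, SLC25A36 and SLC25A25, or 7.5%, against 1.77% of all windows. These 3 are all among the 10 downregulated members with a window, and none of the 8 upregulated members held it. The ETS motif CCGGAAG was found in 8 members, or 20.0%, against 8.82% of all windows, among them 3 of the 8 upregulated and none of the 10 downregulated members. Shares among all upregulated or all downregulated genes were not computed, so neither split by direction has a background here, and it was not tested. All members are protein-coding genes, and shares over protein-coding windows alone were not computed. For these and the other motifs, the members were therefore not set against genes of the same type, and no excess over all windows was tested. The 3 windows with the cyclic AMP element and that of SLC25A20, which is the upregulated member with the ETS motif that changed most among those of at least 1 FPKM, are given 5′ to 3′ on the strand of the gene, with the motif in capitals.
SLC25A33, chr1:9539215-9539464, plus strand, element 49 to 42 bases upstream of the start: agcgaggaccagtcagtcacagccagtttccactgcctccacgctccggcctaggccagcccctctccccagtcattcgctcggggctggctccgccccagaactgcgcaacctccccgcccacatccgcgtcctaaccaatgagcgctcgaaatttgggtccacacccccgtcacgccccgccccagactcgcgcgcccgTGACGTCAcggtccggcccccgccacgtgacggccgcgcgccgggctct
SLC25A36, chr3:140941586-140941835, plus strand, element 117 to 110 bases upstream: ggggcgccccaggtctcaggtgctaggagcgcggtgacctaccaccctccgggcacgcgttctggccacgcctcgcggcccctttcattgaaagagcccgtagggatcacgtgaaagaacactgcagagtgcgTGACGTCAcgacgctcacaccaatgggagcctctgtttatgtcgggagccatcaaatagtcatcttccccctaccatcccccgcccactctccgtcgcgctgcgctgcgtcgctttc
SLC25A25, chr9:128098257-128098506, plus strand, before a start within the gene, element 200 to 193 bases upstream: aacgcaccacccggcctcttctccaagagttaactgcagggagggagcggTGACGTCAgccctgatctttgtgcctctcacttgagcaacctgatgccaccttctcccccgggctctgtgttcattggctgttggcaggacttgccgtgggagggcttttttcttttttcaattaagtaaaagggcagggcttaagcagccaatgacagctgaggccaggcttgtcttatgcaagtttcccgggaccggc
SLC25A20, chr3:48898883-48899132, minus strand, ETS motif 93 to 87 bases upstream: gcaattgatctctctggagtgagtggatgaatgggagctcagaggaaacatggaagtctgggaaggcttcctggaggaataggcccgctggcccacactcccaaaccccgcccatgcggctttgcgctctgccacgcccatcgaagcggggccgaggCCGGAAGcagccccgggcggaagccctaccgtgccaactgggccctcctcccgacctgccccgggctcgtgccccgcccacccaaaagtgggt
A match is a string of letters in a window, and no binding was measured in these cells. The other motifs had shares of 45.0% of members against 33% of all windows for CCAAT, 17.5% against 6.49% for the E-box CACGTG, 70.0% against 42.3% for the GC box GGGCGG and 12.5% against 12.4% for AGAACA, a half-site of steroid receptors. The palindromic NRF1 motif was in no member's window and in 1.13% of all windows.

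SLC25A39, which carries glutathione into the matrix (ENSG00000013306.15, chr17:44319625-44324870), had the clearest increase of the family. It stood at 121, 112 and 112 FPKM in the parental and at 217, 207 and 205 FPKM in the resistant libraries, 1.82-fold higher, with a log2 fold change of 0.86 ± 0.06 (limma adjusted p = 0.000129). SLC25A40, its closest relative and also a glutathione carrier, did not pass, at 19.0, 19.6 and 20.5 FPKM and at 16.7, 16.9 and 18.6 FPKM (-0.18 ± 0.09, adjusted p = 0.159). SLC25A39 thereby went from 85.4% ± 0.945 to 92.3% ± 0.595 of the pair, and the sum of the pair from 135 ± 4.64 to 227 ± 5.73 FPKM (exact permutation p = 0.1 for each).

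SLC25A26, which brings S-adenosylmethionine to the matrix for methylation reactions (ENSG00000144741.17, chr3:66133610-66388116), stood at 12.3, 16.2 and 15.8 FPKM in parental and at 10.8, 7.83 and 9.01 FPKM in resistant cells. Its log2 fold change of -0.68 ± 0.17 (limma adjusted p = 0.0183) did not keep its call without parental replicate 1 or 2 or without resistant replicate 1 or 2, where the adjusted p lay between 0.0597 and 0.069. It has 2669 of its 21792 exonic bases in common with LRIG1 on the opposite strand, which stood at 45.0 FPKM in parental and 5.41 FPKM in resistant cells. The library kit marks the strand, but the strand setting used for counting is not given in the sources used here, and the share of LRIG1 reads in the value was not tested.

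SLC25A17, the peroxisomal carrier of coenzyme A, FAD and related cofactors (ENSG00000100372.14, chr22:40769630-40819399), lay just outside the threshold. It stood at 32.0, 29.7 and 41 FPKM in the parental and at 25.6, 27.2 and 23.5 FPKM in the resistant libraries, all of them lower. The log2 fold change was -0.42 ± 0.14 with an adjusted p of 0.05 in limma (0.050019 before rounding). Over the alternatives the adjusted p ran from 0.0412, without parental replicate 1, to 0.153. Around it, 6 of 12 tested peroxisomal membrane proteins were upregulated and 3 were downregulated, with a median log2 fold change of 0.39. PXMP2, a channel of the peroxisomal membrane, stood at 15.8 ± 0.694 and 132 ± 9.61 FPKM, and PXMP4 at 0.0687 ± 0.119 and 29.0 ± 3.01 FPKM. With a parental mean below the filter of 0.1 FPKM, PXMP4 entered the test only through the resistant libraries. PEX11G and PEX16 were among those that fell.

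The coenzyme A carriers of the inner membrane were uneven between libraries. SLC25A16 stood at 24.1, 22.6 and 24.4 FPKM in parental cells and at 14.5, 30.9 and 12.6 FPKM in resistant cells, where resistant replicate 1 was above every parental library and the other two were below (log2 fold change -0.41 ± 0.33, limma adjusted p = 0.359). Without resistant replicate 1 the log2 fold change was -0.81 and passed the test (adjusted p = 0.00509). SLC25A42 stood at 7.62, 13.7 and 6.57 FPKM and at 6.2, 5.25 and 7.27 FPKM (-0.51 ± 0.30, adjusted p = 0.213), with parental replicate 1 apart from the rest.

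Further cofactor carriers differed little. SLC25A32, a folate and FAD carrier, stood at 13.6 ± 1.61 and 13.1 ± 0.769 FPKM (limma adjusted p = 0.826), and SLC25A51, the NAD carrier, at 10.8 ± 0.941 and 9.46 ± 0.95 FPKM (adjusted p = 0.28). SLC25A52, a relative of SLC25A51, was at or below 0.0983 FPKM in all libraries and was not tested. The enzymes that use these cofactors in mitochondria had 5 up and 3 down of 13. SHMT2, which makes glycine and a one-carbon unit from serine, rose from 241 ± 11 to 398 ± 7.89 FPKM, NNT, the transhydrogenase that makes NADPH in the matrix, rose from 7.08 ± 1.75 to 28 ± 2.45 FPKM, and NADK2, the matrix NAD kinase, fell from 59.1 ± 0.887 to 27.5 ± 2.40 FPKM.

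The mitoferrins, which import iron for haem and iron-sulphur clusters, moved in opposite directions. SLC25A37, mitoferrin 1 (ENSG00000147454.13, chr8:23528956-23575463), stood at 63.0, 71.2 and 62.8 FPKM in the parental and at 45.6, 48.5 and 49.0 FPKM in the resistant libraries (log2 fold change -0.46 ± 0.08, limma adjusted p = 0.00445). SLC25A28, mitoferrin 2 (ENSG00000155287.10, chr10:99610519-99622793), stood at 13.1, 12.6 and 17.1 FPKM and at 23.3, 25.5 and 21.5 FPKM (0.73 ± 0.15, adjusted p = 0.00808). SLC25A28 held 17.2%, 14.99% and 21.4% of the pair in the parental and 33.9%, 34.5% and 30.5% in the resistant libraries, without overlap (exact permutation p = 0.1). The sum of both was 79.9 ± 3.85 FPKM in parental and 71.1 ± 2.63 FPKM in resistant cells, also without overlap. Of 13 genes of mitochondrial iron, haem and iron-sulphur synthesis 3 were upregulated and 5 downregulated. BOLA3, an assembly factor for iron-sulphur clusters, stood at 27.9 ± 3.22 and 67.9 ± 4.60 FPKM, and ISCU, the scaffold of their synthesis, at 63.3 ± 2.77 and 86.9 ± 5.54 FPKM. FECH, which inserts the iron that completes haem, stood at 98.7 ± 13 and 52.6 ± 2.24 FPKM.

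The 3 members named after uncoupling proteins, SLC25A14, SLC25A27 and SLC25A30, did not pass the test, with log2 fold changes of 0.02, 0.28 and 0.19 and limma adjusted p from 0.237 to 0.928. SLC25A14 stood at 8.02 ± 0.188 and 8.19 ± 1.23 FPKM, SLC25A27 at 11.6 ± 2.09 and 14 ± 1.66 FPKM and SLC25A30 at 14.2 ± 3.17 and 16 ± 1.09 FPKM, and the shares of the 3 in their sum overlapped between the groups. The family members that carry other symbols had 3 of 5 upregulated and none downregulated. UCP2, the best known uncoupling protein outside brown fat, stood at 0.18 ± 0.258 FPKM in parental and at 4.70 ± 0.647 FPKM in resistant cells (log2 fold change 4.50 ± 0.66, adjusted p = 0.00204). MTCH1, a relative in the outer membrane, rose from 92.5 ± 4.88 to 110.4 ± 2.04 FPKM, and UCP1, the thermogenic form of brown fat, was listed at 0 in parental cells and at 0.204 ± 0.0594 FPKM in resistant cells, so that it entered the test only through the resistant libraries.

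SLC25A46, an outer membrane protein that shapes mitochondria (ENSG00000164209.16, chr5:110738136-110765161), was upregulated, at 15, 16.4 and 14.6 FPKM in the parental and 19.1, 21.1 and 21.3 FPKM in the resistant libraries (log2 fold change 0.42 ± 0.10, limma adjusted p = 0.014). The largest fall of the family was that of SLC25A48 (ENSG00000145832.12, chr5:135476913-135889770), which is without an assigned substrate in the list used here. It stood at 5.94, 5.03 and 8.21 FPKM in the parental and at 1.33, 0.764 and 0.773 FPKM in the resistant libraries, 6.21-fold lower, with a log2 fold change of -2.63 ± 0.30 (adjusted p = 0.000775). The highest resistant library was well below the lowest parental library, while the parental libraries varied among themselves more than those of most other members. SLC25A35 (ENSG00000125434.10, chr17:8287763-8295400), also unassigned, stood at 7.12, 11.2 and 7.37 FPKM and at 4, 3.61 and 5.16 FPKM (-0.98 ± 0.23, adjusted p = 0.0157). It lost the call without resistant replicate 0 (adjusted p = 0.0686) or 1 (adjusted p = 0.0627), and 1134 of its 3952 exonic bases overlap RANGRF on the opposite strand, which went from 3.38 to 18.3 FPKM.

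SLC25A45 (ENSG00000162241.12, chr11:65375192-65383701) was downregulated, at 19.1, 25.4 and 23.3 FPKM in the parental and 13.7, 12.4 and 16.2 FPKM in the resistant libraries (log2 fold change -0.67 ± 0.15, limma adjusted p = 0.0123). It lost the call without parental replicate 2 (adjusted p = 0.0507) or resistant replicate 0 (adjusted p = 0.0536). SLC25A34 (ENSG00000162461.7, chr1:15736258-15741392) had the largest log2 fold change among the upregulated members at the lowest level, with 0.191, 0.181 and 0.271 FPKM in parental and 0.65, 0.633 and 0.631 FPKM in resistant cells (1.24 ± 0.34, adjusted p = 0.0258). At 0.2 FPKM a library holds a low number of reads on this gene. The call was lost when genes were not filtered (adjusted p = 0.0502) or were quantile normalized (adjusted p = 0.06). SLC25A43 lay just outside the threshold in the upward direction, at 6.48, 5.30 and 5.34 FPKM and at 6.90, 8.84 and 8.13 FPKM, without overlap (0.47 ± 0.16, adjusted p = 0.0507; 0.0458 without parental replicate 0 and 0.0418 without resistant replicate 0). SLC25A53 stood at 2.90 ± 0.245 and 3.08 ± 0.966 FPKM (adjusted p = 0.91), and SLC25A47 was at or below 0.12 FPKM and not tested.

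Carriers reach the inner membrane through the TOM complex of the outer membrane, the small TIM chaperones between the membranes and the TIM22 complex. Of the 13 genes of this route 2 were upregulated and 3 downregulated, with a median log2 fold change of -0.05. TOMM40, the channel of the outer membrane, rose from 36.1 ± 0.588 to 61.4 ± 5.07 FPKM, and the small chaperones TIMM9 and TIMM10, which work as a complex, fell from 42.2 ± 5.29 to 13.7 ± 2.89 FPKM and from 134 ± 13.8 to 69.1 ± 8.21 FPKM. TIMM8A fell and TOMM22 rose as well. Of 17 other transporters of the mitochondrial membranes 2 rose and 6 fell. MPC2, a subunit of the pyruvate carrier, went from 431 ± 27.6 to 123 ± 1.21 FPKM, SFXN2 and SFXN4, of the sideroflexin family, from 49.8 ± 2.05 to 13.4 ± 0.762 FPKM and from 81.7 ± 3.12 to 27.5 ± 2.58 FPKM. SFXN3 of the same family, named after its values were seen, rose from 23.2 ± 4.41 to 46.7 ± 7.51 FPKM. Of the 17 genes 9 did not pass the test. The summed level of these transporters lay between 1186 and 1277 FPKM in the parental and between 659 and 760 FPKM in the resistant libraries, a wider gap than that of the SLC25 sum. MPC2 had the highest level of the list in both groups and so weighed most in this sum.

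**Figure D4:**
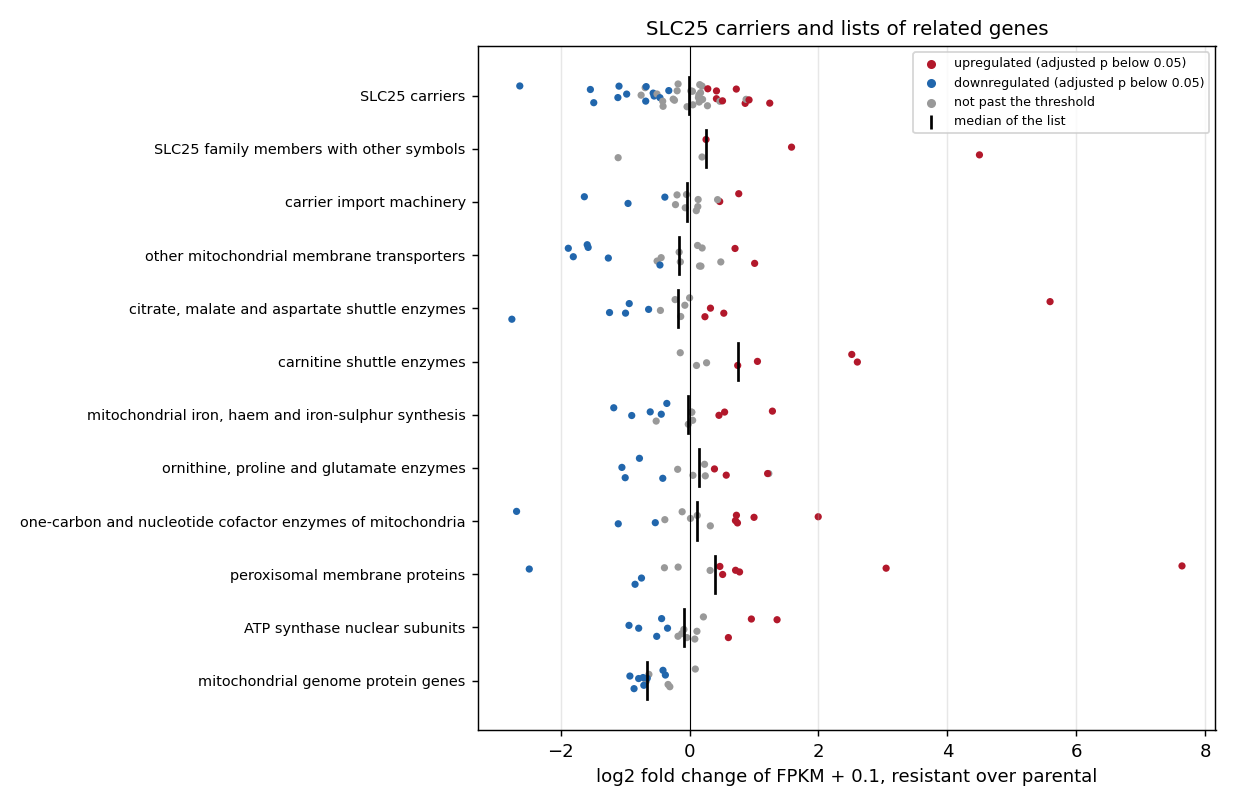
Each point is a tested gene, placed by its log2 fold change of FPKM + 0.1 in resistant over parental cells, with the SLC25 carriers in the top row and the lists of related genes beneath, and black bars mark each list's median. The carriers lie on both sides of 0, 22 on each, with 5 downregulated members and 1 upregulated member beyond 1 log2 unit. The carnitine shuttle enzymes lie to the right with a median of 0.75 and the protein genes of the mitochondrial genome to the left with a median of -0.66.

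The surroundings of the carriers in the genome were described last. Within 500000 bases on either side, the median log2 fold change of the neighbouring protein-coding genes had the sign of the member for 15 of the 20 called members, or 75%, against 63.9% of all called protein-coding genes with a neighbour. Beside SLC25A39 there were 23 tested neighbours with a median of 0.98, of which 18 were upregulated and 1 was downregulated. Beside SLC25A28 there were 9 with a median of 1.41, of which 7 were upregulated, and beside SLC25A46 there were 4 with a median of 2.09, of which 3 were upregulated. SLC25A20 differed from its surroundings, where 32 neighbours had a median of -0.20 with 4 upregulated and 11 downregulated. The number of gene copies was not measured, and its part in these values was not tested.

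Reads of the SLC25A5 and SLC25A6 genes can also match their many processed copies. The table lists 40 SLC25 pseudogenes, of which 23 were at 0 in all 6 libraries and none exceeded 2.01 FPKM in any library. SLC25A5P5, the only one called, stood at 0.0616 ± 0.055 FPKM in parental and at 0.457 ± 0.0887 FPKM in resistant cells, opposite in direction to SLC25A5 and far below it. This pseudogene reached the filter of 0.1 FPKM only through the resistant libraries. None of the 4 antisense genes of the family passed the test.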

How the data were processed

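RNA-Seq values of 6 libraries were analysed, 3 from parental and 3 from enzalutamide resistant C4-2B cells. Per the study's methods, single-end reads of 50 bases went through TrimGalore 0.4.3 and STAR 2.5.3 (GRCh38), the authors estimated FPKM with Cufflinks 2.2.1 on GENCODE v25, and the deposited table holds 1 FPKM value per gene and library. The submitters' processing notes instead list Trimmomatic 0.27, FastQC 0.10.1 and the mouse build mm10, while the table holds human gene identifiers. The table's header names no unit, and how the libraries were scaled against each other is not given in the sources used here. The methods say that the mitochondrial chromosome was excluded, but its genes are listed in the table and were kept.

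Groups and replicate numbers were taken from the sample labels. Values were compared on the scale log2(FPKM + 0.1) with limma 3.58.1 (R 4.3.3), with a variance trend and no block, over the 24468 genes whose mean reached 0.1 FPKM, two-sided, with Benjamini-Hochberg adjustment and a threshold of 0.05, and the members were read from that fit. Fold changes on this scale understate those of low genes. Sums and shares were compared with exact two-sided permutation tests, whose smallest p is 0.1. Coordinates and exons were taken from GENCODE v44 (GRCh38), by gene identifier without version for 56935 of 58024 genes, and promoter windows from RefSeq (GRCh38.p14). Depth was estimated with fragments assumed to be 200 bases long. No pair of libraries held identical values.

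The fit was tested on simulated data with the spread of this comparison over 24468 genes. It called 23 of 113 genes changed by 1 log2 unit and 48 of 87 changed by 2, none with the wrong sign. No other genes were changed, whereas 44.4% of genes were called in the data. The adjustment was therefore stricter in the simulation, and the share of changes missed in the data cannot be read from it. Members, gene lists, motifs and named genes were chosen with earlier results of these data known. Full values are given for called members of at least 1 FPKM without overlap, the 5 highest members, SLC25A17, the sets of alternative carriers and, of each list, the 3 called genes with the smallest p. Some genes covered by this rule are not reported here, but they stay in the counts. Alternatives covered the pseudocount, filter, scaling, variance trend, a replicate block, each library left out, the thresholds and the family definition. The tables were processed in Python 3.11.15 (pandas 2.3.3, numpy 2.4.6, scipy 1.17.1) and plotted with matplotlib 3.10.9.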

Additional observations from a re-analysis of the deposited data

How the results depend on the processing

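Of the 20 called members 14 kept their call under all 16 alternatives that refit the data, and 8 members that were not called passed under at least 1 of them. No member changed direction with a call. Requiring at least 2-fold left 1 member upregulated and 5 downregulated, 15 list genes upregulated and 13 downregulated, and 3320 of all genes downregulated. An adjusted p below 0.01 left 5 members upregulated and 23 list genes upregulated, and 3570 of all genes downregulated. These counts are lower by construction. Without each library in turn, between 7 and 9 members were upregulated and between 9 and 12 downregulated, and the ratio of the summed SLC25 FPKM lay between 0.976 and 1.02. That ratio was 1.07 under median-ratio scaling and 0.926 without SLC25A3. Upper quartile scaling shifted the median log2 fold change of all genes by 0.119 and gave 11 members up and 11 down, so that 50.0% of the called members were upregulated instead of 40%. Taking the 5 highest members of each library, a choice made after seeing the data, changed the difference in their share of the sum from 6.99 to 5.49 percentage points.

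The replicate numbers are shared between the groups, but the deviations of libraries with the same number had correlations of 0.00176, 0.018 and -0.00138 over 16382 genes, so they share only a number. With a replicate block 6 members were upregulated and 11 downregulated, with SLC25A4 (adjusted p = 0.0655), SLC25A34 (0.078) and SLC25A26 (0.0597) no longer called, and 4670 of all genes were upregulated and 4793 downregulated. The files give no read counts, so counting error could not be separated from the spread between libraries. With 3 libraries a group, no test of a sum or share could go below 0.1.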
